A study of Mus musculus with 8 samples.

Results

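The activator protein 1 (AP-1) family is described here by 10 genes of the deposited count table, matched by symbol: the Fos genes Fos, Fosb, Fosl1 and Fosl2, the Jun genes Jun, Junb and Jund, and the related factors Atf3, Batf and Maff. They are 10 of 22244 gene symbols in the table, and 9 of the 10 had enough counts to be tested among 14192 genes. Lung RNA came from the right cranial lobes of adult male C57BL/6J mice, an inbred wild-type strain, with 4 naphthalene-injected mice and 4 untreated control mice, 1 total RNA library per mouse. Naphthalene is a hydrocarbon that the P450 enzymes of mouse airway club cells turn into toxic products, and it is used to injure the airway epithelium. Neither dose nor vehicle nor the interval from injection to sampling is stated, so effects of the injection itself cannot be told apart from those of naphthalene. Whole lobes were used, so fewer cells of a type and less RNA per cell cannot be told apart in any value below.

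AP-1 proteins are basic leucine zipper factors that bind DNA as dimers, with a Jun protein as the usual partner of a Fos or ATF protein. Many AP-1 genes are early response genes, whose mRNA is made within minutes of a growth factor or stress signal through MAP kinases and is degraded soon afterwards. Fosl1 and Fosl2, which lack the strong transactivation domain of Fos and Fosb, tend to be made later and to last longer. In injured epithelium AP-1 is known for driving genes of matrix remodelling and repair.

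After naphthalene 4 of the 9 tested members were higher and 0 were lower (edgeR quasi-likelihood test, Benjamini-Hochberg adjusted p under 0.05 over all tested genes). Fosl1 and Maff had no overlap between the groups, 2 of 9 members beside 28.6% of all tested genes. Fosl1 met the count filter only through its naphthalene libraries, so its direction was set by its entry into the test. Its place in these counts is thus no independent support. Junb and Fosl2 rose by smaller amounts. Fos, the founding member, stood at 52.7 ± 15.1 CPM in naphthalene lungs and 63.5 ± 28.7 CPM in control lungs (CPM, counts scaled to library size with TMM factors, mean ± SD, n = 4 each) and did not pass (edgeR adjusted p = 0.532). Jun, Jund, Fosb and Batf did not pass either. Over all tested genes 28.7% passed, 14.1% higher and 14.6% lower, so 4 of 9 members (44.4%) is a small count set against a large background. The median log2 fold change of the 9 members was 0.26, beside 0.01 over all tested genes. Without naphthalene 1 or without naphthalene 2 the number was 2 (Maff and Junb), since Fosl1 then failed the count filter and Fosl2 did not pass. At an unadjusted p under 0.05 edgeR also found 0 members lower, and limma voom and DESeq2 each found 4 higher and 0 lower.

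**Figure D1:**
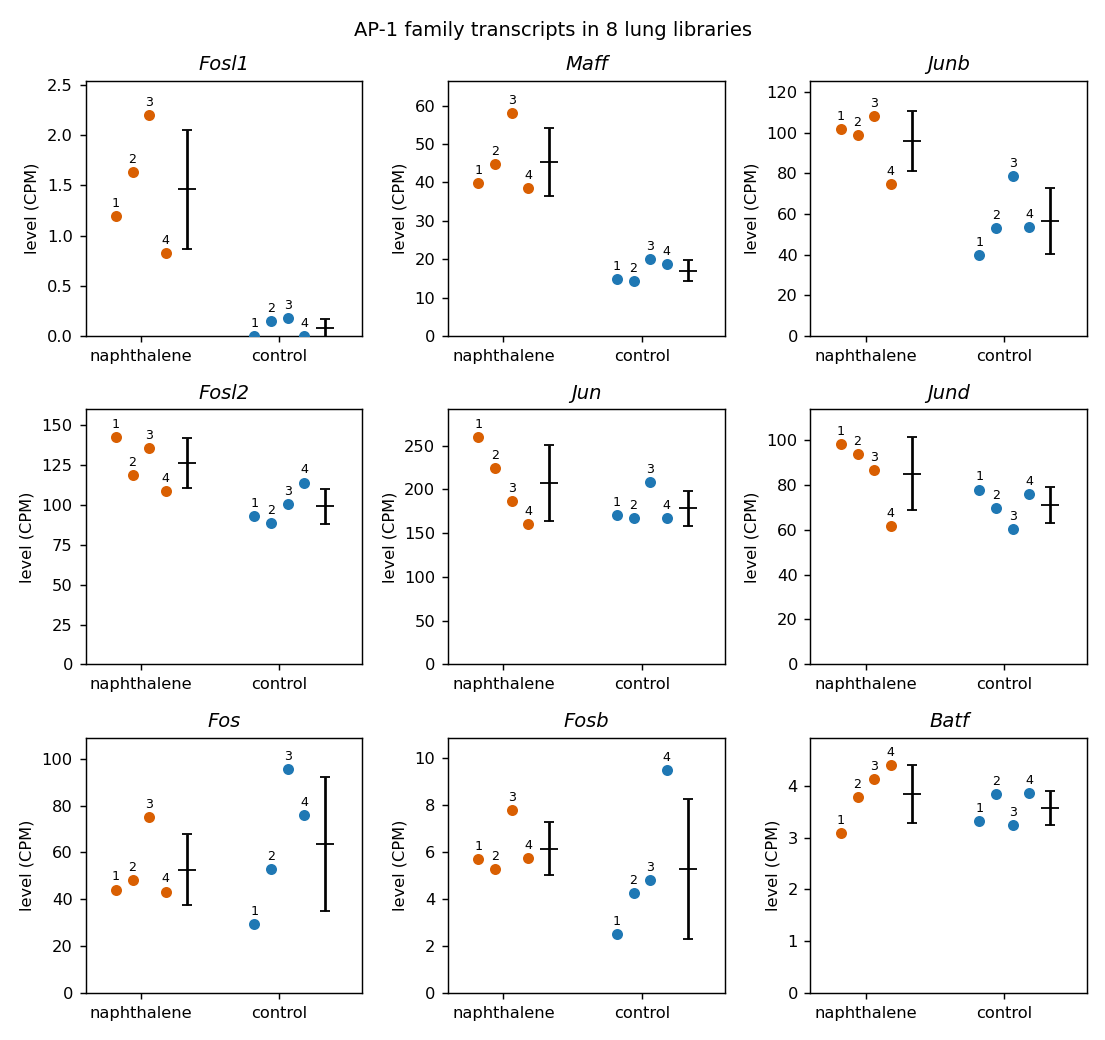
Level of each measured AP-1 member (vertical axes, CPM, from 0) in the 4 naphthalene libraries (orange, left) and the 4 control libraries (blue, right), numbered by replicate, with the mean and SD as black bars. Fosl1 and Maff separate the groups, as did 28.6% of all tested genes. The Fos and Fosb controls are widely spread, from 29.4 to 95.7 CPM and from 2.51 to 9.52 CPM.

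Promoter windows are shown for Maff and Junb, which rose, and for Jun and Fos, which did not pass, as members with and without a call. They are RefSeq sequences on GRCm38.p6, another build than the mm39 named for the counts, and each runs from 250 bases before to 50 bases after an annotated start. Capitals mark every match on either strand to the AP-1 site TGANTCA, the cyclic AMP response element form TGACNTCA, its short form TGACG (which overlaps TGACGTCA), the antioxidant response form TGACNNNGC and the CArG box bound by serum response factor.
Maff, chr15:79347270-79347569, plus strand, the second of 3 annotated starts: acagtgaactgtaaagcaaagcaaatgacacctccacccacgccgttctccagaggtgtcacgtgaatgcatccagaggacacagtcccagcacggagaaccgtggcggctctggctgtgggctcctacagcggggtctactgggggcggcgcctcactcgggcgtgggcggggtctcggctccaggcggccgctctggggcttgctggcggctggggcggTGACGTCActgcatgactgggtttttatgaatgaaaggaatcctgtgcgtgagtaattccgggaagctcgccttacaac
Junb, chr8:84978699-84978998, minus strand: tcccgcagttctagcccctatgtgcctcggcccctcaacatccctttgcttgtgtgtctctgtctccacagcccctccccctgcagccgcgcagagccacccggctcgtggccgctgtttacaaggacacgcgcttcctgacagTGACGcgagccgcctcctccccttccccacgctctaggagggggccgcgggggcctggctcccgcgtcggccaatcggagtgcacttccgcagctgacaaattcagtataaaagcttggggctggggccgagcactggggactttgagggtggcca
Jun, chr4:95052173-95052472, minus strand: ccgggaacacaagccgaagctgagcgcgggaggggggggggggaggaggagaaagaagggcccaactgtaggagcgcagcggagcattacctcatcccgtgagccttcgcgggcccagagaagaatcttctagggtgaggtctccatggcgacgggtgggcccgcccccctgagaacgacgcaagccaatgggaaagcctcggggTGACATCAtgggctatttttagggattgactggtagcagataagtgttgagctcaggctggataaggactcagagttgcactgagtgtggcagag
Fos, chr12:85473640-85473939, plus strand: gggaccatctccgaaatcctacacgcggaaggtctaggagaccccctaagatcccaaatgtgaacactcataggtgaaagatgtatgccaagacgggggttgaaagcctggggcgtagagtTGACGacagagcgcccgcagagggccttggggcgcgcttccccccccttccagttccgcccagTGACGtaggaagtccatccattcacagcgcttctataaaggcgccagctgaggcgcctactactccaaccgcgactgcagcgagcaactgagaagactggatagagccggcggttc

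The Maff window holds TGACGTCA starting 29 bases before the start, and the Jun window holds TGACATCA starting 45 bases before it. Junb has TGACG starting 106 bases before its start, and Fos has it at 129 and 66 bases. The 9 members with a RefSeq entry have 11 windows, 3 of them of Maff. TGACG was in 7 of the 11 windows, from 6 members, and in 20.8% of all 32851 windows, and TGACNTCA was in 3 of the 11, from Jun and Maff, and in 8.83% of all windows. No member window held TGANTCA or a CArG box, which 7.81% and 1.63% of all windows held, and TGACNNNGC was found in 1 Maff window, against 12.4% of all windows. Junb, which rose, and Fos, which did not pass, thus both hold the TGACG letters in this window. Fosl2, which also rose, and Jund, which did not pass, hold no match in their windows, which are not printed. Of the Maff windows, the one printed is that with TGACGTCA. These matches are letters in a short window and describe no binding. Sequence further upstream was not searched, so a form missing here may lie beyond the window.

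Among the Fos genes, Fosl1 (Fra-1 in protein nomenclature) was nearly silent in control lungs. It had 20, 25, 25 and 9 counts in naphthalene libraries 1 to 4, against 0, 2, 2 and 0 counts in control libraries 1 to 4. Every naphthalene library was above every control library, by a wide margin and from a very low level. Only the naphthalene libraries carried Fosl1 past the count filter, so this separation follows in part from the filter. In CPM it averaged 1.46 ± 0.591 in naphthalene lungs and 0.0802 ± 0.0935 in control lungs (SD, n = 4 each). The pooled counts, 79 after naphthalene and 4 in controls, gave an 18.2-fold higher level after allowing for library size, with an exact 95% interval of 6.85 to 68.6 that covers counting error only. The fitted log2 fold change of 4.04 depends on the prior count at such low levels (edgeR adjusted p = 0.000952). The SE of 0.40 belongs to log2 CPM with a prior count of 2, which evens out such low counts. It does not give the error of the fitted 4.04. GENCODE M21 places Ccdc85b on the opposite strand across the end of Fosl1, and the strand setting of the counting is not given. Ccdc85b itself stood at 16.4 ± 2.28 CPM in naphthalene lungs and 17.9 ± 4.15 CPM in control lungs and did not pass (edgeR adjusted p = 0.635).

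Fosl2 (Fra-2) rose by a small amount. Its levels were 142, 119, 135 and 109 CPM in naphthalene libraries 1 to 4, against 93.2, 88.5, 101 and 114 CPM in control libraries 1 to 4. Naphthalene 4 lay below control 4, so the groups overlapped. The log2 fold change was 0.35 (SE 0.12, edgeR adjusted p = 0.0387). The call was borderline: it was lost without control 1, 2 or 3 or without naphthalene 1, 2 or 3 (edgeR adjusted p 0.062 to 0.126). It was also lost with all libraries kept, under upper quartile scaling or no filter (edgeR adjusted p = 0.0519 and 0.0526). The log2 fold change of Fosl2 stayed between 0.29 and 0.42 with any 1 library left out.

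Fos was set apart by the spread within groups rather than by a difference between them. It had 44.2, 48.1, 75.1 and 43.3 CPM in naphthalene libraries 1 to 4, against 29.4, 52.9, 95.7 and 76.2 CPM in control libraries 1 to 4. The control range enclosed every naphthalene value, and its highest control was 3.25 times its lowest, beside 1.73 times among naphthalene libraries. The log2 fold change of -0.27 (SE 0.41) was -0.01 without control 3. Fosb, a close relative of Fos, had 5.71, 5.28, 7.82 and 5.77 CPM in naphthalene libraries, against 2.51, 4.28, 4.83 and 9.52 CPM in control libraries. Its control values also enclosed all 4 naphthalene values (log2 fold change 0.20, SE 0.40, edgeR adjusted p = 0.688). Without control 4, its highest library, the log2 fold change was 0.65 (edgeR adjusted p = 0.0981). Within-group SDs on the log2 CPM scale were 0.586 for Fos, 0.572 for Fosl1 and 0.568 for Fosb. Each was larger than in over 95% of tested genes (percentiles 96.3, 95.9 and 95.8), whereas Fosl2 had 0.169 (percentile 35.6). Fosl1 had only 9 to 25 counts per naphthalene library and 0 to 2 per control, so counting error weighs on its SD.

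Among the Jun genes Junb passed the test, and Jun and Jund did not. Junb, which is often a weaker activator than Jun, had 102, 98.7, 108 and 74.5 CPM in naphthalene libraries 1 to 4, against 39.9, 53.3, 78.9 and 53.4 CPM in control libraries 1 to 4. Of the 4 naphthalene libraries 3 were above all controls, and naphthalene 4 was below control 3. Junb rose by 0.77 on the log2 scale (SE 0.23, edgeR adjusted p = 0.0106), and it passed with each library left out (log2 fold change 0.63 to 0.97). Jun, the family's main Fos partner, had 259.6, 224, 187 and 160.2 CPM in naphthalene libraries, against 170.3, 168, 208 and 167 CPM in control libraries. Naphthalene 1 and 2 were above all controls and naphthalene 4 was below them all (log2 fold change 0.22, SE 0.17, edgeR adjusted p = 0.276). Jund, the Jun gene that is expressed most steadily in resting cells, had 97.9, 93.5, 86.5 and 61.7 CPM in naphthalene libraries, against 77.8, 69.5, 60.4 and 75.9 CPM in control libraries. Naphthalene 1, 2 and 3 were above all controls, whereas naphthalene 4 lay among them. The log2 fold change was 0.26 (SE 0.17, edgeR adjusted p = 0.193). With naphthalene 4 left out Jund passed, at a log2 fold change of 0.39 (edgeR adjusted p = 0.0179).

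Opposite-strand genes overlap each Jun gene in GENCODE M21: Junos at Jun, Gm11175 at Jund and Prdx2 at the end of Junb. Of these, Prdx2 is in the table, at 82.1 ± 2.67 CPM in naphthalene lungs and 76.9 ± 4.92 CPM in control lungs (edgeR adjusted p = 0.423). Without a stated strand setting, reads of such partners cannot be told apart.

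Maff, a small Maf protein with a DNA-binding zipper but no transactivation domain, pairs with NRF2 and Bach proteins at antioxidant response elements as well as with Fos proteins. It had 39.9, 44.7, 58.2 and 38.6 CPM in naphthalene libraries 1 to 4, against 14.9, 14.4, 20.1 and 18.6 CPM in control libraries 1 to 4. The lowest naphthalene library was well above the highest control, without overlap. Of all tested genes 28.6% had no overlap, 13.9% with naphthalene higher. Maff averaged 45.4 ± 8.92 CPM in naphthalene lungs and 17.0 ± 2.79 CPM in control lungs (SD, n = 4 each), with a log2 fold change of 1.41 (SE 0.18, edgeR adjusted p = 0.000136). It passed with each library left out, with a log2 fold change of 1.27 to 1.5.

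**Figure D2:**
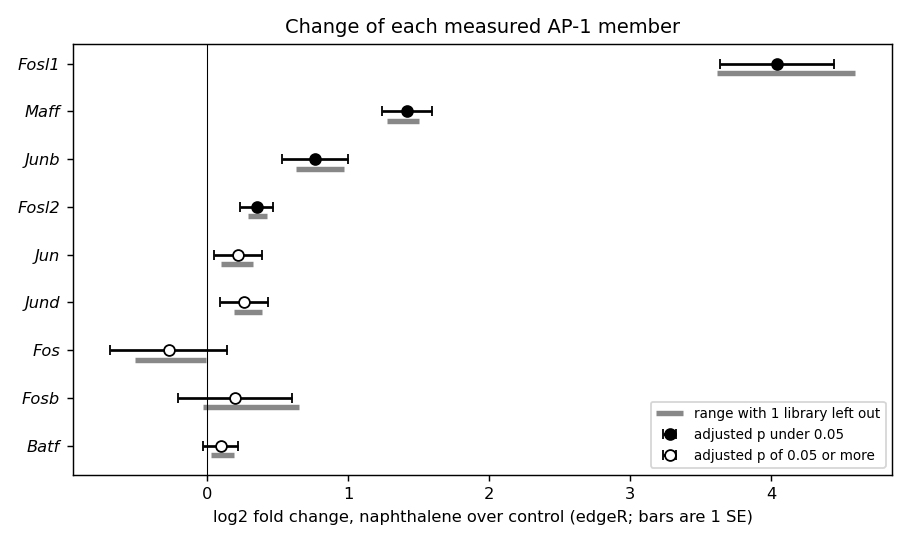
Log2 fold change of each measured member, naphthalene over control (horizontal axis), with 1 SE as black bars and the range over 8 fits that each leave out 1 library in grey. Filled points passed an adjusted p of 0.05. For Fosl1 the grey range comes from 6 fits, since it failed the count filter without naphthalene 1 or 2. The Fosl1 SE, from log2 CPM with a prior count of 2, does not give the error of its fitted value. Every grey range but that of Fosb lies on one side of 0. The ranges of Maff and Junb do not overlap those of Jun, Jund and Batf, whereas that of Fosb (-0.03 to 0.65) overlaps that of Junb (0.63 to 0.97).

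Batf, known for its part in T and B lymphocyte differentiation, varied little. It had 3.10, 3.78, 4.13 and 4.4 CPM in naphthalene libraries 1 to 4, against 3.32, 3.85, 3.25 and 3.87 CPM in control libraries 1 to 4. The groups overlapped, and the log2 fold change was 0.10 (SE 0.12, edgeR adjusted p = 0.737). Lymphocyte markers were lower beside it: all 6 T cell and all 5 B cell markers fell, with summed T cell levels of 9.78 to 13.4 CPM in naphthalene lungs and 26.4 to 31.9 CPM in control lungs. Summed B cell levels were 38.1 to 63.5 CPM in naphthalene lungs and 117 to 158 CPM in control lungs, and no measured marker was at 0. The part of these cells in the Batf level was not tested.

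Atf3, a stress-induced ATF factor that pairs with Jun proteins, could not be assessed. It was listed at 0 counts in all 8 libraries, but so was nearly every gene of its chromosome. Of 1172 symbols that RefSeq places on chromosome 1, 1159 (98.9%) were listed at 0 in all 8 libraries, and the other 13 held 188 reads in all. On the other autosomes between 0.659% and 11.9% of genes were at 0. The 0 for Atf3 is therefore no measure of its expression, and the same holds for its pathway genes Batf3, Elk4, Creb1, Cop1, Cops5, Ptgs2, Ier5 and Btg2.

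**Figure D3:**
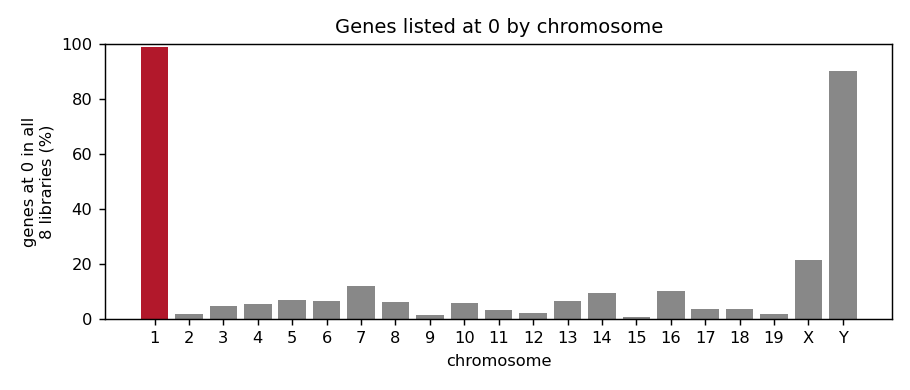
Share of the table's genes listed at 0 in all 8 libraries (vertical axis, %) for each mouse chromosome (horizontal axis, RefSeq positions). Chromosome 1, in red, which carries Atf3, stands at 98.9%, the highest of the other autosomes is at 11.9%, and the Y chromosome is at 90.2%.

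Levels of different genes are compared here per length, as CPM per kb of GENCODE M21 exon. The length joins the exons of all annotated transcripts, and the annotation used for the counts is not given, so the order depends on it. In naphthalene lungs the order was Jun (65.1 ± 13.6), Jund (50.9 ± 9.69), Junb (41.6 ± 6.40), Fos (22.4 ± 6.42), Maff (17.5 ± 3.44), Fosl2 (13 ± 1.6), Batf (2.74 ± 0.400), Fosb (0.985 ± 0.182) and Fosl1 (0.718 ± 0.291). In control lungs it was Jun (55.9 ± 6.20), Jund (42.5 ± 4.72), Fos (27.0 ± 12.2), Junb (24.5 ± 7.08), Fosl2 (10.2 ± 1.15), Maff (6.56 ± 1.08), Batf (2.54 ± 0.236), Fosb (0.847 ± 0.480) and Fosl1 (0.0395 ± 0.0460; all CPM per kb, SD, n = 4 each). The ranges of neighbours overlapped for Jun and Jund, Jund and Junb, Fos and Maff, and Fosb and Fosl1 in naphthalene lungs, and for Jund and Fos and for Fos and Junb in control lungs. Junb thus ranked above Fos in every naphthalene library, whereas it was above Fos in 2 of 4 control libraries. Maff ranked above Fosl2 in every naphthalene library and below it in every control library. This switch rests on the lengths used, 9680 bases for Fosl2 and 2594 for Maff. In CPM Fosl2 was above Maff in every library, with means of 126 and 45.4 CPM in naphthalene lungs. Junb was likewise above Jund in mean CPM in naphthalene lungs (95.8 and 84.9 CPM).

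As a share of the summed level of the 9 measured members, Maff made up 8.19 ± 1.39% in naphthalene lungs and 3.84 ± 0.23% in control lungs, and Junb 19.4 ± 0.721% in naphthalene lungs and 14.2 ± 2.41% in control lungs. Fos made up 10.5 ± 2.56% in naphthalene lungs and 15.4 ± 5.33% in control lungs (SD, n = 4 each). The 3 Jun genes together held 73.2 ± 4.4% in naphthalene lungs and 72.7 ± 5.16% in control lungs. These shares of CPM per kb are a description that depends on the same lengths, and Atf3 is missing from them.

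**Figure D4:**
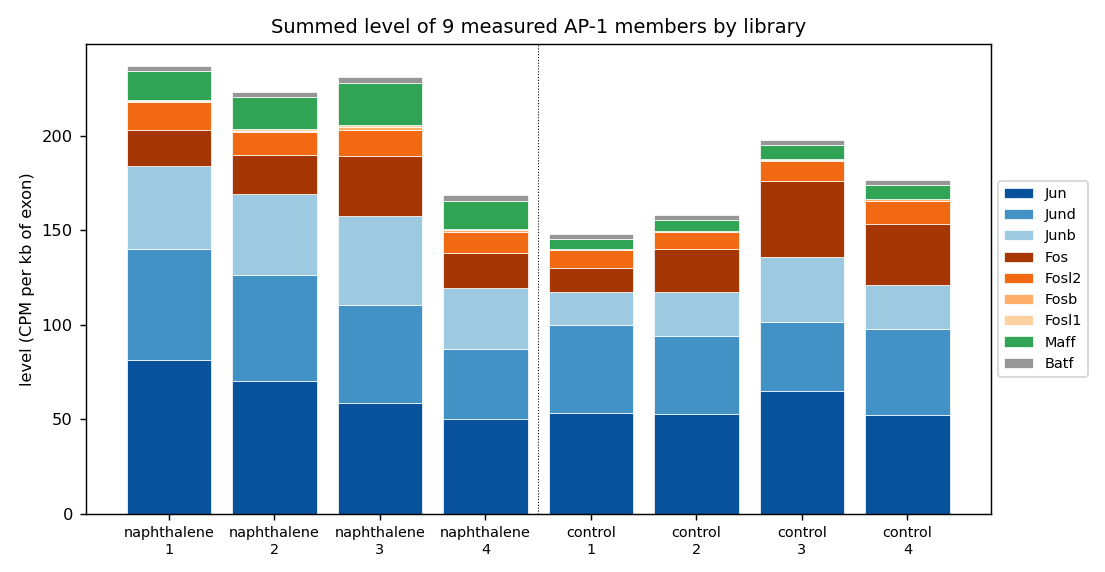
Summed level of the 9 measured AP-1 members (vertical axis, CPM per kb of exon) in each library, naphthalene left and control right of the dotted line, with 1 colour per gene. Jun, Jund and Junb (blue) make up most of every bar, and the Maff segment (green) is larger in each naphthalene library than in each control library.

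Whether members of a subfamily moved unequally was tested on 5 ratios of counts within libraries, by exact 2-sided permutation over 70 assignments of the libraries. The log2 ratio of Junb to Jun was -1.35, -1.18, -0.786 and -1.10 in naphthalene libraries 1 to 4, against -2.09, -1.65, -1.40 and -1.65 in control libraries 1 to 4. The groups did not overlap, and Junb gained 0.59 on Jun on the log2 scale (exact p = 0.0286, adjusted p = 0.0714 over 5 ratios). Fosl1 gained 4.16 on Fos (exact p = 0.0286, adjusted p = 0.0714), or 2.94 with a prior count of 2 in place of 0.5. The smallest p that 70 assignments allow is 0.0286. The differences for Fosb to Fos (0.54, exact p = 0.0857), Fosl2 to Fos (0.53, exact p = 0.229) and Jund to Jun (0.04, exact p = 0.829) had adjusted p of 0.143, 0.286 and 0.829 over the 5 ratios. No ratio passed after adjustment. Junb to Jun and Fosl1 to Fos already had the smallest p, so neither could pass unless further ratios reached it as well.

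The members did not vary alike from library to library. Among naphthalene libraries, naphthalene 4 was lowest for 7 of 9 members and naphthalene 3 highest for 5, namely Fos, Fosb, Fosl1, Junb and Maff, whereas naphthalene 1 was highest for Fosl2, Jun and Jund. Among controls, control 3 was highest for Fos, Fosl1, Jun, Junb and Maff and lowest for Jund and Batf. Fosl1 had 2 counts in controls 2 and 3 and 25 counts in naphthalene 2 and 3. Batf had 37 counts in controls 1 and 3, so these places rest on library size alone. Fosl2, Jun and Jund were highest in naphthalene 1 and lowest in naphthalene 4, and so was the sum of 4 endothelial markers, at 2299 and 1009 CPM, beside 1882 to 2223 CPM in control lungs. Of those 4 markers 1 fell and none was at 0. The sum of 4 fibroblast markers had the same order, with 1715, 1539, 1451 and 1286 CPM in naphthalene libraries 1 to 4, beside 1328 to 1598 CPM in control lungs, and none was at 0. The sum of 5 neutrophil markers was 390.3 CPM in control 3 and 61.8 to 93.2 CPM in the other controls, and 206 to 496 CPM in naphthalene lungs, where 2 of 5 rose and none was at 0. Their part in the AP-1 levels was not tested. Without control 3 the log2 fold change was 0.97 for Junb and 1.5 for Maff, and both passed (edgeR adjusted p = 0.00181 and 0.000318).

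The genes with profiles most like the 3 members of smallest p were found by Pearson correlation of log2 CPM over the 8 libraries. These libraries share the difference between groups, and each gene given is among the 3 highest of all tested named genes. A high r thus follows in part from that choice, and shared control was not tested. For Maff the genes were Slc22a4 and Abcb1b (both r = 0.994) and Utp20 (r = 0.992). For Fosl1 they were Tgm1 and Gps1 (both r = 0.995) and Rpl7l1 (r = 0.992), and for Junb Cap1 (r = 0.985), Crcp (r = 0.98) and Polh (r = 0.975), none of which passed itself (edgeR adjusted p 0.0898 to 0.266). Tgm1, the transglutaminase of the cornified envelope, had 16.9 ± 3.81 CPM in naphthalene lungs and 4.04 ± 0.905 CPM in control lungs, and Abcb1b, a drug efflux pump, had 22.7 ± 4.42 CPM in naphthalene lungs and 7.14 ± 0.817 CPM in control lungs.

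Other zipper factors that share partners with AP-1 changed in both directions. Of 15 tested bZIP genes 3 rose and 1 fell (26.7%, beside 28.7% of all tested genes), with a median log2 fold change of 0.10. Mafk, the small Maf relative of Maff, stood at 175 ± 22.7 CPM in naphthalene lungs and 102 ± 4.27 CPM in control lungs. Jdp2, which represses AP-1 as a partner of Jun proteins, stood at 31.2 ± 1.78 CPM in naphthalene lungs and 20.1 ± 0.524 CPM in control lungs, and the stress factor gene Atf4 at 223 ± 32.3 CPM in naphthalene lungs and 133 ± 4.79 CPM in control lungs. Bach2, a lymphocyte repressor that pairs with small Maf proteins, fell to 121 ± 21.5 CPM in naphthalene lungs, against 244 ± 16.3 CPM in control lungs (log2 fold change -1.01, edgeR adjusted p = 0.000236). All 4, named for their smallest p, had no overlap between groups, as had 28.6% of all tested genes. The fall of Bach2 stood beside that of the B and T cell markers given above, whose part was not tested. With DESeq2 6 of these genes rose and 2 fell.

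Upstream, 4 of 27 tested genes of the MAP kinase and serum response factor routes rose and 4 fell (29.6%, close to the 28.7% of all tested genes), with a median log2 fold change of 0.01, as over all tested genes. Map2k1 and Map3k8 had log2 fold changes of 0.34 and 0.40, and Map2k7 and Mapk13 rose too. Map2k6 stood at 9.63 ± 3.29 CPM in naphthalene lungs and 22.0 ± 2.73 CPM in control lungs (log2 fold change -1.18, edgeR adjusted p = 0.00247), and Map3k1 fell by 0.57 on the log2 scale. Mapk3 and Elk3 fell as well. The number past the threshold was 5 without naphthalene 2 or control 4, and 12 without naphthalene 1. Among 10 tested genes of AP-1 mRNA and protein turnover, 1 rose and 1 fell (20%, beside 28.7% of all tested genes). Their median log2 fold change was 0.07. The gene that fell was Zfp36l1, which destabilises mRNAs with AU-rich elements, by 0.33 on the log2 scale. Zfp36l1 lost its call without naphthalene 2 (edgeR adjusted p = 0.0575).

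Textbook AP-1 target genes were mostly higher. Of 22 tested, 14 rose and 0 fell (63.6%, beside 28.7% of all tested genes), with a median log2 fold change of 1.42 beside 0.01 over all tested genes. Among the 14 were the proteases and their regulators Mmp3, Plau, Plaur, Plat and Timp1, the cytokine and growth factor genes Il6, Il11, Ccl2, Hbegf and Areg, and Hmox1, Spp1 and Tnc. Mmp3 (stromelysin 1), a long-studied AP-1 target, had 64.9, 70.9, 95.8 and 83.3 CPM in naphthalene libraries 1 to 4, against 15.0, 18.4, 24.5 and 24.1 CPM in control libraries 1 to 4, without overlap (log2 fold change 1.94, SE 0.21, edgeR adjusted p = 4.5e-05). The log2 fold changes of Timp1, Areg and Hmox1 were 3.46, 2.80 and 1.86. At an unadjusted p under 0.05 edgeR found 1 of the 22 lower, and limma voom called 14 higher and 0 lower, whereas DESeq2 called 17 higher and 1 lower, the vascular growth factor gene Vegfa. The list was drawn up with results on several of these genes known, and many of them answer to other factors as well, so the count is no measure of AP-1 activity.

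Other early response genes, which share upstream signals with Fos, split. Of 21 tested 9 rose and 2 fell (52.4%, beside 28.7% of all tested genes), with a median log2 fold change of 0.26 beside 0.01 over all tested genes. Arc, known from neuronal activity, had 12.8 ± 3.37 CPM in naphthalene lungs and 0.878 ± 0.197 CPM in control lungs, and Myc had 16.2 ± 1.93 CPM in naphthalene lungs and 4.30 ± 1.03 CPM in control lungs. Gadd45b and Klf6 had log2 fold changes of 0.85 and 0.56, and Egr2, Dusp5, Dusp6, Klf4 and Trib1 had 0.41 to 0.77. Egr3 fell by 1.19 and Nr4a1 by 0.76 on the log2 scale (edgeR adjusted p = 0.0123 and 0.0288). The number past the threshold was 7 without naphthalene 2 or control 4.

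**Figure D5:**
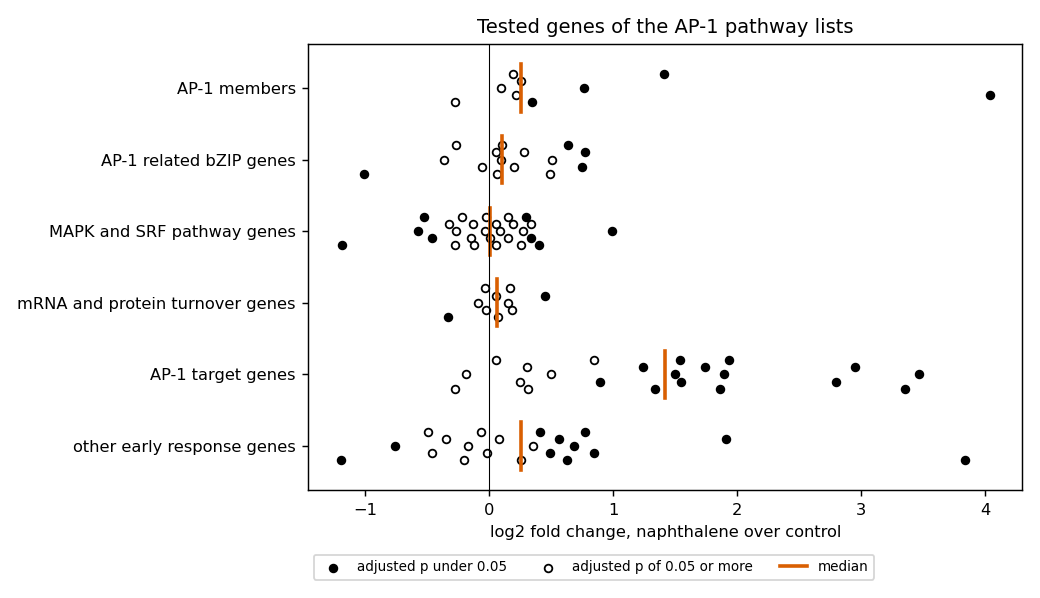
Log2 fold change, naphthalene over control (horizontal axis), of each tested AP-1 member and of each tested gene in 5 related lists, with filled points past an adjusted p of 0.05 and list medians as orange bars. The target genes have a median of 1.42, and the MAP kinase list is centred near 0.

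Total counts ran from 10743842 to 16792306 per library, and 3 counts in a library correspond to 0.179 to 0.275 CPM, above the level of Fosl1 in every control. The lung markers Sftpc, Ager, Scgb1a1, Cdh5 and Col1a1 were present in all libraries, summing to 8692 to 11590 CPM in naphthalene lungs and 11120 to 15000 CPM in control lungs. Club cell markers, the cells that activate naphthalene, summed to 989 to 2671 CPM in naphthalene lungs and 4787 to 9739 CPM in control lungs, with all 4 lower.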

How the data were processed

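Per the labels' protocols, DNase-treated total RNA went into a stranded total RNA kit. The authors deposited raw whole-number counts for each gene symbol. The submitters' processing notes list mm39, HISAT2 2.2.1, Trim Galore 0.6.7, edgeR 4.2.1 and featureCounts 2.0.6, with no role or order, and neither the annotation nor the strand setting is given in the sources used here. Columns were matched to mice by library name, and 0 columns were of other samples. R 4.3.3 and edgeR 4.0.16 were used for the count test: filterByExpr (minimum count 10, minimum total 15), TMM scaling, the quasi-likelihood test (no term besides group) and Benjamini-Hochberg adjustment over 14192 genes at 0.05. Each SE belongs to the difference between group means of log2 CPM (prior count 2). The members and lists were chosen with earlier results of these data known. Every member was named, with the 4 genes of smallest p past the threshold in each list and the 3 genes most correlated with each of 3 members, and other list genes were named after their values were seen. Some list genes that met this rule are not reported here. Alternatives were RLE scaling, upper quartile scaling, filtering less or more strictly, limma 3.58.1 voom, DESeq2 1.42.0, a replicate block and leaving out libraries. In simulated counts for naphthalene against control, 82% of 50 genes raised by a log2 change of 1 were recovered and 83.7% of 49 lowered by it, and all 50 and 47 at 2, with 13 false calls among 192 over 14177 genes. Far fewer genes were changed in the simulation than passed in the data, so its rates need not hold for this comparison. Libraries of a group differed beyond sampling noise (chi-square over its degrees of freedom 5.73 to 51.4), so each counted once. Of 22244 symbols 20467 matched the RefSeq table on GRCm38.p6, used for chromosome names and promoter windows.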

Additional observations from a re-analysis of the deposited data

Results flagged for a closer look

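In 64 groups of 4 values checked, 1 library stood apart from the other 3 in 4 cases. Chance gives about 1 in 20, or about as many cases as were found. Naphthalene 3 had 75.1 CPM of Fos, against 43.3 to 48.1 CPM in the other naphthalene libraries. Control 3 had 208 CPM of Jun, against 167 to 170.3 CPM in the other controls. Control 3 also had 17.9 CPM of Map2k6, against 23.0 to 23.9 CPM in the other controls, and control 1 had 126 CPM of Atf4, against 134 to 136 CPM in the other controls.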

How the results depend on the processing

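Maff and Junb passed under all 16 alternatives, with log2 fold changes of 1.27 to 1.56 and 0.63 to 0.97. Fosl1 passed under the 13 in which it was fitted. It failed the count filter without naphthalene 1 or 2 and under the stricter filter. With no filter, an alternative chosen after seeing the data, it passed without naphthalene 1 (4.12, edgeR adjusted p = 0.000321) and without naphthalene 2 (3.97, edgeR adjusted p = 0.00227). Fosl2 lost its call under 9 of 16, among them no filter (edgeR adjusted p = 0.0526), upper quartile scaling (0.0519) and the removal of control 3 with naphthalene 1 (0.0809). Batf and Jun did not pass under any of 16. Fos and Fosb did not pass either and changed sign in 1 each, Fos to 0.07 without control 3 and naphthalene 1 and Fosb to -0.03 without control 1.

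With 1 library left out the members past the threshold numbered 2 to 5, with 2 without naphthalene 1 or naphthalene 2. The related bZIP genes numbered 5 to 8, with 8 without control 3, and 7 without control 3 and naphthalene 1 together and 8 with DESeq2, against 4. The MAP kinase genes numbered 5 to 12, and 13 without control 3 and naphthalene 1, against 8. The turnover genes numbered 1 to 3, the target genes 14 to 16 and the other early response genes 7 to 11. Genes past the threshold numbered 2929 to 5058. Leaving out 1 library, the ratio differences were 0.31 to 0.74 for Fosb to Fos, 3.59 to 4.54 for Fosl1 to Fos, 0.46 to 0.69 for Junb to Jun, 0.30 to 0.83 for Fosl2 to Fos and -0.11 to 0.11 for Jund to Jun, where the sign changed. The first 3 passed without control 4 (exact permutation, adjusted p = 0.0476). There Fosb to Fos also reached exact p = 0.0286, which lowered the adjusted p of Fosl1 to Fos and Junb to Jun. The exact p of those ratios stayed at 0.0286. The causes were not tested.

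Same-numbered libraries of the groups correlated at 0.287, 0.0332, 0.184 and -0.0934 in their deviations from group means, so the numbers were not taken as pairs. With a replicate block 4363 genes passed, against 4075, with 4 members still past the threshold, and the sign flip over pairs gave the ratios p of at least 0.125, the smallest it allows. Depth limits Fosl1, with 0 to 2 counts per control.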

Other observations

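Mafa, a large Maf factor, was too low for the count filter and was singled out after its values were seen. It had 1.07, 0.783, 1.67 and 0.916 CPM in naphthalene libraries 1 to 4, against 0, 0.0726, 0 and 0.143 CPM in control libraries 1 to 4, without overlap.

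Egr1 and Dusp1, early response genes that did not pass, shared part of the library order of Fos, and were also chosen after their values were seen. Egr1 had 61.8, 62.9, 84.1 and 43.1 CPM in naphthalene libraries 1 to 4, against 23.8, 36.2, 65.2 and 71.9 CPM in control libraries 1 to 4 (edgeR adjusted p = 0.420). Dusp1 had 144.5, 178, 190.3 and 157 CPM in naphthalene libraries, against 101, 110.4, 226 and 124 CPM in control libraries (edgeR adjusted p = 0.415). Naphthalene 3 was the highest naphthalene library for both, as it was for Fos, and control 1 was the lowest control for both, as it was for Fos.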
